A study of Homo sapiens with 30 samples.

Results

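HCT116, a human colon carcinoma cell line, was compared in normal oxygen with a renal and a lung carcinoma line on a custom Affymetrix expression array. The HCT116 arrays at 0 h were 2 of the 30 arrays of the series, taken by their labels, 1 from p53-null and 1 from p53 wild-type cells. They were set against 4 other arrays at 0 h. These came from H1299, a non-small cell lung cancer line without p53 or with p53 put back, and from replicate 1 of RCC4, a renal carcinoma line without VHL or with wild-type VHL put back. All were monolayer cultures that had not yet entered the anoxic incubator, and p53 status therefore differed within HCT116 and within H1299, while VHL status differed within RCC4. The 2 kept gene sets are the genes whose intensity in both HCT116 arrays lay above, or below, all 4 other arrays. They hold 641 and 1326 of 7614 tested genes, so 8.42% and 17.4%.

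Cells of the colon lining are simple epithelial cells, joined by E-cadherin, desmosomes and tight junctions and carrying keratins in place of vimentin. Mature colonocytes add intestinal genes that are switched on by the CDX transcription factors, such as villin, keratin 20 and cadherin 17. Carcinoma lines keep these programmes to different degrees, and HCT116 is usually counted among the poorly differentiated colon lines.

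The rule took 1 array of each group at 0 h, although RCC4 also has a replicate 2 in both genotypes, so the 2 genotypes of a line stood as its 2 arrays. A p-value therefore measures repeatability over genotypes, and no label names separate cultures. Values are the deposited intensities, with null entries taken as 0, and differences are log2 differences of intensity plus 16, each array centred on its median. The 6 arrays had median listed intensities of 145 to 172 and null entries for 28.3% to 35.7% of probe sets, and the number of arrays limits the precision. Across tested genes, which are not independent, the HCT116 arrays correlated at 0.976 with each other. They correlated at 0.904 to 0.920 with H1299 and at 0.748 to 0.780 with RCC4. H1299 and RCC4 correlated at 0.780 to 0.790, so the RCC4 arrays stood apart from both other lines, and line and any difference in array handling cannot be told apart. The genotype labels were not checked here.

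The kept genes were mostly close calls. The median distance between the nearest HCT116 array and the nearest other array was 1.05-fold for the genes above and 1.10-fold for the genes below, on intensity plus 16. The distance reached 1.5-fold for 36 genes above and 129 below, and 2-fold for 20 above and 39 below. It was widest for DUSP5 among the higher genes, at 7.09-fold, and for VIM among the lower genes, at 7.74-fold. At the edge of the rule, IMPDH2 was just inside with a lower HCT116 value of 965 against 964, and ADGRE5 was just outside with 561 against 561. The excess of lower genes rested on the scale: with each array centred on its median, 1095 genes (14.4%) lay above and 913 (12%) below.

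Of 8 defining colon markers 1 lay above all 4 other arrays in HCT116. Among them, villin (VIL1) and keratin 20 (KRT20) were null on all 6 arrays, and GPA33, a colon surface antigen, was null on both HCT116 arrays and at 18 and 20 on the RCC4 arrays. HLA-E, which most cells express, was null on all 6 arrays too, so such entries do not show that a gene is absent. CDX2, the homeobox factor that specifies intestine, had 252 and 184 in HCT116, 211 and 170 in H1299 and 181 and 183 in RCC4. These overlap, and the difference was 0.29 ± 0.15 (SE; limma adjusted p = 0.218). LGALS4, an intestinal galectin, had 174 and 163 in HCT116 against 166 to 176 elsewhere. CEACAM5, the carcinoembryonic antigen, had 99 and 108 against 85 to 133, so neither gene separated HCT116 from the others. CDH17 had 46 and 26 in HCT116, near the 29 and 21 of H1299 and below the 62 and 50 of RCC4. Among the defining markers, CDX1 alone lay above all 4 other arrays. It had 28 and 31 in HCT116, close to the 23 and 27 of H1299, against a null entry and 3 in RCC4. CDX1 was too dim to be tested with the rest. Over all 12690 genes, dim ones included, 921 (7.26%) lay above all 4 other arrays and 1565 (12.3%) below, and limma without the filter called 966 higher (7.61%) and 786 lower (6.19%). In that fit the difference of CDX1 was 0.86 ± 0.08 (SE; limma adjusted p = 0.0113).

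Of 21 gut epithelial genes on the array, 7 were bright enough to test and 1 was called higher, against 11.3% of all tested genes called higher. That gene was MYO1A, a brush border myosin, at 295 and 310 in HCT116, 291 and 285 in H1299 and 230 and 210 in RCC4. It differed by 0.34 ± 0.08 (SE; limma adjusted p = 0.0372), and the call was lost when arrays were not centred, when null entries were left missing, and without p53-null HCT116, H1299 with p53 or RCC4 with VHL. Against H1299 alone MYO1A was not called (limma adjusted p = 0.758), nor was it with the 4 other arrays taken as 1 group. With replicate 2 of RCC4, where 2699 of all 7614 genes were called higher, 5 of the 7 were. GUCY2C, the intestinal receptor for guanylin, had 1277 in p53-null and 743 in p53 wild-type HCT116 against 539 to 703, and it missed the threshold (limma adjusted p = 0.0531). FABP1, a fatty acid carrier of enterocytes, was dim, at 31 and 26 in HCT116 against 2 to 13, and without the filter it was called higher by 1.15 ± 0.14 (SE; limma adjusted p = 0.0148). Without the filter 3 of the 21 genes were called higher and 1 lower. The summed intensity of the 21 genes was 2736 to 3324 in HCT116 and 2405 to 2626 elsewhere, without overlap. That separation rests on GUCY2C, which was not called, and without it the sums of HCT116 and RCC4 overlap. In hypoxia GUCY2C had 578 to 643 in HCT116, against 631 and 653 in H1299 and 554 and 543 in RCC4. Of 9 tested mucus and goblet cell genes none was called, and MUC2, the main colon mucin, had 260 and 250 against 246 to 284. Without the filter 1 of the 12 such genes on the array was called higher, REG4 (limma adjusted p = 0.0101). REG4 had 144 and 142 in HCT116, close to the 128 and 136 of H1299, against 72 and 73 in RCC4. The defining markers thus do not establish the label of colon identity, and the summed gut genes separated HCT116 only with GUCY2C included. The genes are described below as those that separate HCT116 from the other 2 lines.

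**Figure D1:**
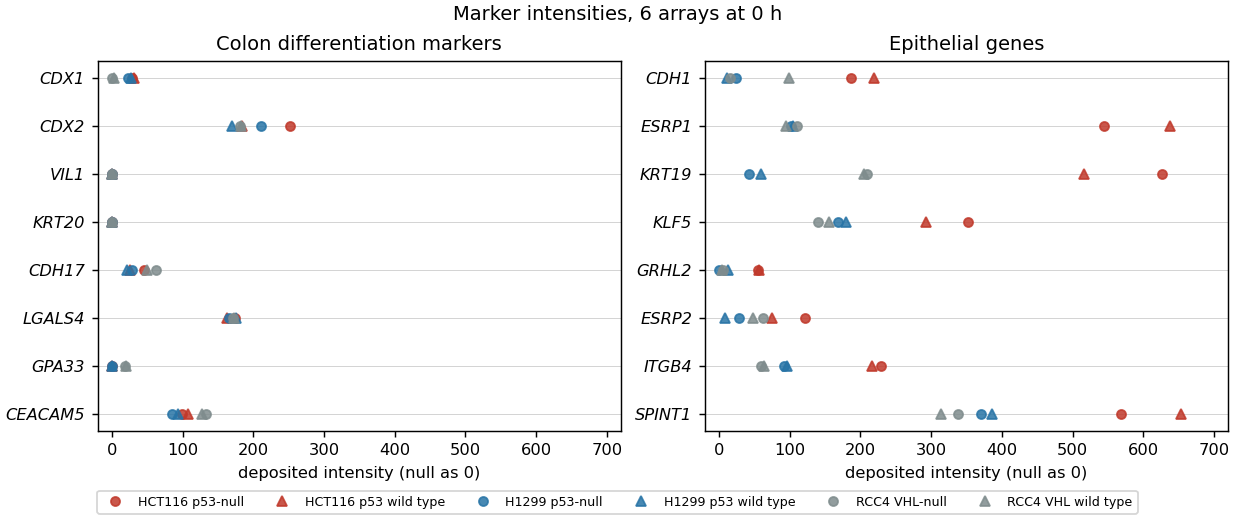
Deposited intensity (null drawn as 0) on the 6 arrays at 0 h for the 8 defining colon markers on the left and 8 epithelial genes on the right; colour gives the line and shape the genotype. VIL1 and KRT20 sit at 0 on every array and most of the other colon markers lie close together. In every epithelial gene drawn both HCT116 arrays lie to the right of the 4 others, but these genes were picked for display. Members of the epithelial list that overlap or go the other way, such as KRT8, DSP, CLDN1 and CLDN2, are not drawn, and KLF5 is from the gut endoderm list.

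The genes furthest above the other lines were led by DUSP5, ADIRF and ESRP1. DUSP5, a nuclear phosphatase that switches off ERK, had 681 and 658 in HCT116, 55 and 79 in H1299 and 78 and 47 in RCC4. ADIRF, named as a regulator of adipogenesis, had 874 and 943 in HCT116 against 111 to 148. ESRP1, an RNA-binding protein that sets epithelial splicing, had 544 and 638 against 95 to 110. In these 3 genes both HCT116 values were several times those of every other array, and the folds were 9.19, 6.92 and 5.42 in that order, on intensity plus 16. FGF19, a hormone that the ileum sends to the liver to restrain bile acid synthesis, had 446 and 427 against 69 to 120. ALDH1A3, which makes retinoic acid, had 580 and 627, against 213 in RCC4 with VHL and 102 to 130 elsewhere. Neither gene had an overlap between HCT116 and the others.

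Other leading genes owed their place to a low value in one line. KRT19, a keratin of simple epithelia, had 626 and 516 in HCT116, 209 and 205 in RCC4, and 43 and 60 in H1299. SAT1, which acetylates spermidine and spermine, had 446 and 546 in HCT116, 176 and 145 in RCC4, 54 in H1299 with p53 and a null entry without it. SAT1 was not called against RCC4 alone (limma adjusted p = 0.0804) or in the fit without the filter on dim genes (limma adjusted p = 0.0560). SERPINB1, an inhibitor of neutrophil proteases, had 275 and 274 in HCT116 against 199 and 217 in RCC4 and 12 and 13 in H1299. The gap for SERPINB1 was thus narrow towards RCC4, and replicate 2 of RCC4, on a brighter scale, had 376 and 538. On centred values too, HCT116 did not lie above replicate 2 for SERPINB1. IER3, an immediate early gene, had 1105 and 1308 against 643 and 527 in RCC4 and 226 and 202 in H1299. Replicate 2 of RCC4 had 1680 and 1150 for IER3, which overlaps HCT116 on the deposited intensity. On centred values both HCT116 arrays lay above replicate 2 for IER3.

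The remaining leading genes were UPP1, PDP1, GSTO2, ATF3, TSC22D3 and TPTEP1. UPP1, which splits uridine, had 759 and 1135 in HCT116 against 151 to 364. PDP1, the phosphatase that activates pyruvate dehydrogenase, had 375 and 498 against 66 to 162. GSTO2, an omega-class glutathione transferase, had 268 and 238 against 26 to 127. The groups did not overlap in these 3 genes, although for GSTO2 this held for 1 of its 2 probe sets. ATF3, a stress-induced transcription factor, had 240 and 351 against 61 to 91, and TSC22D3, a glucocorticoid-induced leucine zipper protein, had 211 and 181 against 114 at most. Replicate 2 of RCC4, on a brighter scale, had 292 and 190 for ATF3 and 192 and 113 for TSC22D3, which overlap HCT116. On centred values both HCT116 arrays lay above replicate 2 in both genes. Against RCC4 alone TSC22D3 was not called (limma adjusted p = 0.0752), and 1 of its 2 probe sets had HCT116 above the 4 other arrays. TPTEP1, a transcribed pseudogene of the TPTE family, had 818 and 794 against 204 to 275, and reads of near-identical copies by its probe sets were not tested.

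**Figure D2:**
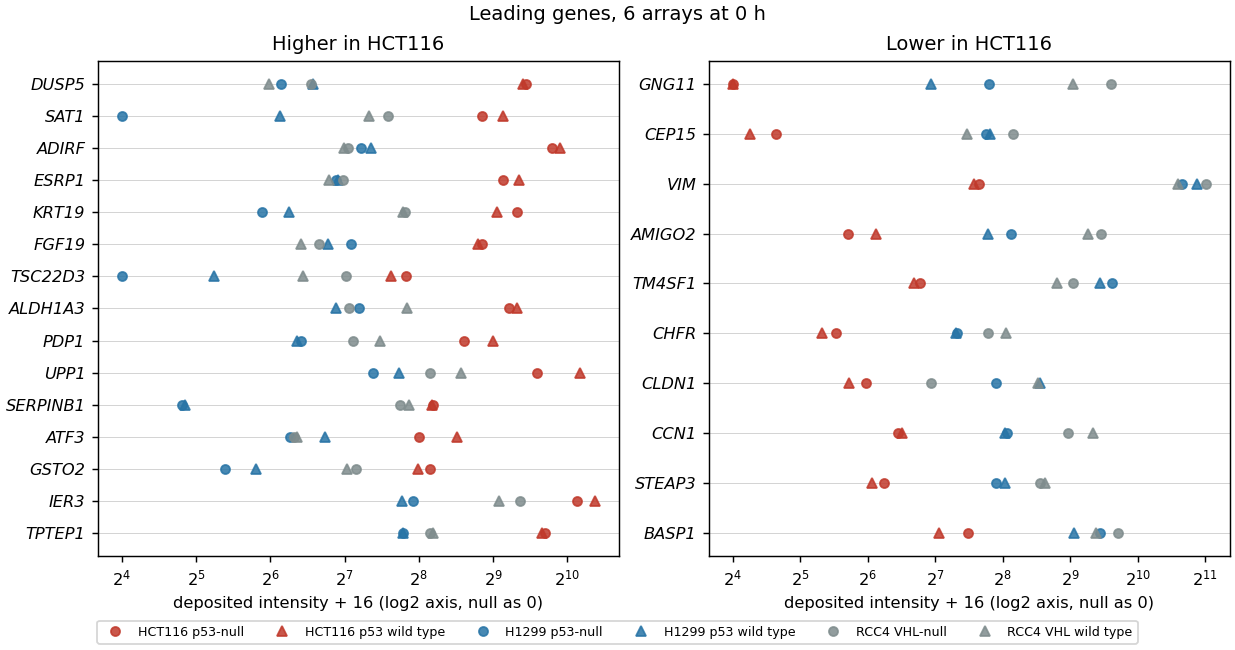
Intensity plus 16 on a log2 axis, null entries at 16, for the 15 higher and 10 lower leading genes on the 6 arrays at 0 h; colour gives the line and shape the genotype. In all 25 genes both HCT116 arrays lie on one side of the 4 others, with the widest separations for DUSP5, ADIRF, GNG11, CEP15 and VIM and a narrow one for SERPINB1.

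The leading genes below the other lines included VIM, TM4SF1, CCN1 and AMIGO2. VIM, which encodes the intermediate filament vimentin, had 184 and 174 in HCT116, 1597 and 1862 in H1299 and 2048 and 1532 in RCC4. The other lines were 8.49-fold higher on intensity plus 16. TM4SF1, a membrane protein of migrating cells, had 94 and 87 in HCT116, 770 and 678 in H1299 and 510 and 429 in RCC4. CCN1, a matrix protein that binds integrins, had 71 and 75 in HCT116 against 247 to 633. AMIGO2, a cell adhesion protein, had 36 and 54 against 205 to 684. In these genes the lowest other array was well clear of the higher HCT116 array.

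GNG11, a gamma subunit of G proteins, was null in both HCT116 arrays and had 107 to 763 elsewhere, so no fold is given. SPP1, which encodes the secreted matrix protein osteopontin, was likewise null in HCT116 and had 66 to 656 elsewhere; it was named after its values were seen. CEP15, a centrosomal protein, had 9 and 3 in HCT116 against 161 to 268. CHFR, a ubiquitin ligase of the early mitotic checkpoint, had 30 and 24 in HCT116, 144 and 143 in H1299 and 205 and 249 in RCC4. STEAP3, which reduces iron in endosomes, had 60 and 51 against 224 to 379, and BASP1, a membrane-bound cortical protein, had 164 and 117 against 516 to 824. All of these lay below every other array with at least 2-fold between the nearest arrays.

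The same contrast was fitted over all 7614 tested genes with limma, HCT116 minus the mean of the other lines. It called 859 genes higher (11.3%) and 714 lower (9.38%), and since it uses the arrays that chose the kept genes, these calls describe them and do not test them. Of the called genes 54.6% were higher, against 37.5% with arrays left uncentred and 38.6% with null entries left missing. Against RCC4 alone 1642 (21.6%) were higher and 1089 (14.3%) lower, of which 60.1% were higher, against 37.9% uncentred and 39.8% with null entries missing. Against H1299 alone 209 (2.74%) were higher and 272 (3.57%) lower. These comparisons share the HCT116 arrays. Called against each line in the same direction were 87 genes higher (1.14%) and 175 lower (2.3%). Without the p53-null HCT116 array they were 40 and 73, without the p53 wild-type array 44 and 80, and without the RCC4 array with VHL 58 and 111.

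The fit takes its error from the 2 arrays within each line. With the 4 other arrays as 1 group, so that the distance between RCC4 and H1299 enters the error, 15 genes were called higher (0.197%) and 19 lower (0.25%), with 366 and 533 at an unadjusted p under 0.05. All 34 were also called against each line. The 15 higher genes were DUSP5, ADIRF, ESRP1, FGF19, ALDH1A3, ATF3, TPTEP1, ZFP36, PHLDA2, PPL, PRSS3, KLK8, SCNN1A, STK39 and JOSD1. The lowest adjusted p was that of ESRP1 and VIM, both 0.00441 in limma. SAT1, KRT19, TSC22D3, PDP1, UPP1, SERPINB1, GSTO2, IER3, GNG11, AMIGO2, CLDN1 and CCN1 of the leading genes lost the call in this fit.

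Of these 15, 6 that were not among the leading genes are described by their values. SCNN1A, the alpha subunit of the epithelial sodium channel, had 222 and 293 in HCT116 against 79 to 97, and periplakin (PPL), a desmosomal linker protein, had 381 and 398 against 127 to 160. The trypsin-like proteases PRSS3 and KLK8 had 226 and 205 against 60 to 82, and 357 and 342 against 140 to 153. PHLDA2, an imprinted growth regulator, had 1110 and 1386 against 450 to 478. ZFP36, which marks AU-rich messages for decay, had 537 and 445 against 120 to 176. This fit favours genes in which H1299 and RCC4 lie close together, as they did in these 6. For PHLDA2, however, replicate 2 of RCC4, on a brighter scale, had 992 and 817, nearer to HCT116.

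The 19 lower genes were CEP15, VIM, TM4SF1, CHFR, STEAP3, BASP1, MSRB3, TBC1D4, TDP2, SLC26A2, GTF3C6, IL6ST, STX4, HDGFL2, PPP1R11, WDR55, STOM, RARS1 and SDCBP. IL6ST, the shared receptor subunit of interleukin 6 cytokines, had 134 and 189 in HCT116 against 492 to 575. SLC26A2, a sulfate transporter, had 35 and 51 against 171 to 320. TDP2, which repairs topoisomerase adducts on DNA, had 26 and 33 against 136 to 166. STX4, a syntaxin of the plasma membrane, had 71 and 78 against 206 to 217. HCT116 was below all 4 other arrays in each, and in TDP2 and STX4 the H1299 and RCC4 arrays were alike.

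**Figure D3:**
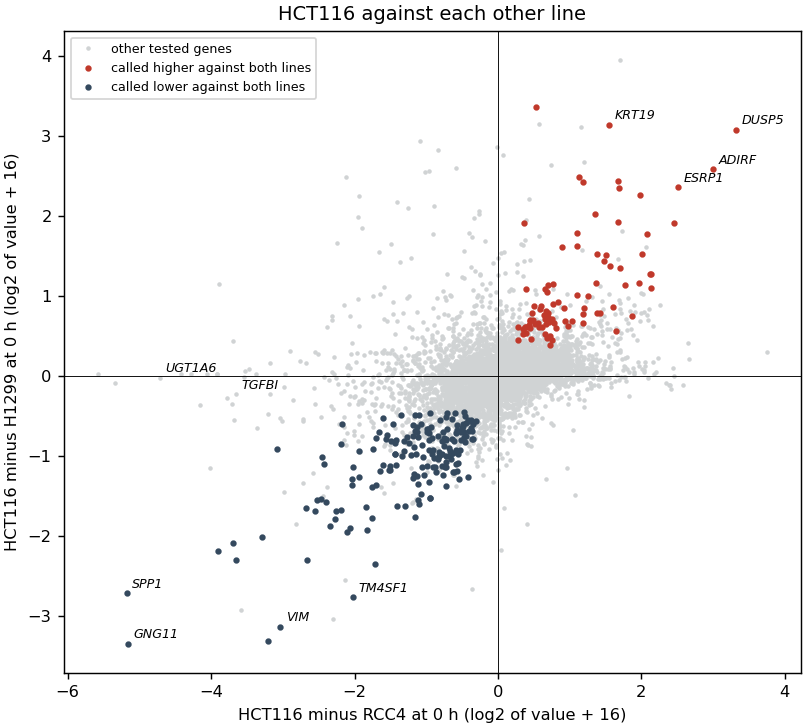
HCT116 minus RCC4 (horizontal) against HCT116 minus H1299 (vertical) at 0 h for 7614 tested genes, both in log2 units; coloured points are the 87 genes called higher and 175 called lower against each line by limma. The axes share the HCT116 arrays; UGT1A6 and TGFBI lie far to the left near the horizontal line, while DUSP5, ADIRF, ESRP1, VIM and TM4SF1 lie far from both lines.

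Epithelial junction and keratin genes were mostly higher in HCT116. Of 48 listed genes 33 were on the array and 25 were tested, and 13 were called higher and 2 lower, against 11.3% and 9.38% of all tested genes. Their median difference was 0.43 against 0.05 over all tested genes. The counts were 12 and 2 with arrays uncentred, 9 and 1 when either one of the HCT116 arrays was left out, and 1 and 0 with the other arrays as 1 group, where ESRP1 alone kept the call. Against each line in turn 8 were called higher, namely ESRP1, KRT19, ITGB4, CLDN4, JUP, SPINT1, SPINT2 and CDS1, and 1 was called lower, CLDN1.

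ITGB4, the integrin subunit of hemidesmosomes, had 229 and 216 in HCT116, 92 and 96 in H1299 and 60 and 64 in RCC4. SPINT1, an inhibitor of the epithelial protease matriptase, had 568 and 653 against 314 to 386. SPINT2, its relative, had 954 and 1102 in HCT116, 855 and 932 in RCC4 and 266 and 265 in H1299, so HCT116 was just above RCC4. JUP, plakoglobin of desmosomes and adherens junctions, had 600 and 538 against 224 to 407. CDS1, an enzyme of phosphatidylinositol supply, had 128 and 165 against 73 to 104, and CLDN4, a tight junction claudin, had 514 and 536 against 356 to 466. HCT116 did not overlap the 4 other arrays in any of these, although for CDS1 this held for 1 of its 2 probe sets. Replicate 2 of RCC4, on a brighter scale, had 1107 and 1347 for SPINT2, 202 and 169 for CDS1 and 518 and 507 for CLDN4. These values overlap or exceed HCT116, while in ITGB4, SPINT1 and JUP HCT116 stayed above replicate 2 as well. On centred values HCT116 lay above replicate 2 in all of these genes.

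CDH1, which encodes E-cadherin, had 187 and 219 in HCT116, 24 and 12 in H1299, 15 in RCC4 without VHL and 99 with it. It lay above all 4 other arrays but failed the filter on dim genes, and without that filter its difference was 2.38 ± 0.56 (SE; limma adjusted p = 0.0612). GRHL2, a transcription factor that maintains epithelium, had 55 and 56 against 13 at most (1.84 ± 0.26, SE; limma adjusted p = 0.0210 without the filter). ESRP2, the paralogue of ESRP1, had 122 and 75 against 9 to 62, with a limma adjusted p of 0.0654 without the filter. Not all calls in the list set HCT116 apart from both lines. DSP, a desmosomal plaque protein counted among the 13 higher, had 130 and 85 in HCT116, null entries in H1299 and 256 and 287 in RCC4, and against RCC4 alone it was called lower (-1.08; limma adjusted p = 0.00650). DSG2, OCLN and MARVELD2, also among the 13, overlapped other arrays. Against RCC4 alone 11 of the 25 were called higher and 3 lower, and 2 claudins were called lower against the mean of the lines. CLDN1 had 47 and 37 in HCT116 against 107 to 360. It was also called lower against RCC4 alone and against H1299 alone (limma adjusted p = 0.0376 and 0.0458). CLDN2, a pore-forming claudin, had 110 and 105, within the 105 and 116 of H1299 and below the 633 and 834 of RCC4. The keratins KRT8 and KRT18 were not called, with 1106 and 1280 in HCT116 against 1160 to 1492 for KRT8.

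The promoters of 3 of the 8 epithelial genes are shown because their genes were higher together and each window holds the E-box CACCTG, the sequence bound by the ZEB and SNAI repressors of epithelial genes. RefSeq windows of 250 bases upstream of the start site on GRCh38.p14 are printed 5′ to 3′ on the gene's strand. Capitals mark the E-box on either strand. The windows are chr4:84582877-84583126 on the plus strand for CDS1, chr17:41785977-41786226 on the minus strand for JUP and chr15:40844227-40844476 on the plus strand for SPINT1, the last 2 being 1 of several promoters of their genes.
CDS1: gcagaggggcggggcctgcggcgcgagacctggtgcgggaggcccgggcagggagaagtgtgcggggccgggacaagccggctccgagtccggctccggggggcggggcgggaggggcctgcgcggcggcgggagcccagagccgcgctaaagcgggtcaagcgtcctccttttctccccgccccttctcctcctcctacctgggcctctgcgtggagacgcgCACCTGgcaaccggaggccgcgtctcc
JUP: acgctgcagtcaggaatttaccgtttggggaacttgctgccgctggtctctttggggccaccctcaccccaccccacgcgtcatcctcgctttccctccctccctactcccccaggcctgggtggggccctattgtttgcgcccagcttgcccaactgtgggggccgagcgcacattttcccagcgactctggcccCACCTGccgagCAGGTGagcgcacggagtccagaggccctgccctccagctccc
SPINT1: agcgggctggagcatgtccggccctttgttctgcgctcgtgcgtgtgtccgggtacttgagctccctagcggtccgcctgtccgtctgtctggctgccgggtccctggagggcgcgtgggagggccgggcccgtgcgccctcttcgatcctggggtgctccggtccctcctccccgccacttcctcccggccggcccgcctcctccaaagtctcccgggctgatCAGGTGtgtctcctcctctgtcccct
These windows were picked for the E-box, and those of the other epithelial genes are not shown. The E-box occurs once in the CDS1 and SPINT1 windows and 2 times in the JUP window. It was found on either strand in 26 of the 63 matched genes called higher against each line (41.3%), in 24 of 151 matched lower genes (15.9%), in 21.6% of 6159 matched tested genes and in 20.6% of all 27305 genes with a promoter. The AP-1 site TGANTCA was in 7 of 63 (11.1%) and 12 of 151 (7.95%), and in 6.58% of the tested genes. A gene with several promoters counted if any of them held the motif, and the number of promoters per gene was not compared between these sets. None of the 3 windows shown holds the AP-1 site. These are shares of matching letters and say nothing about binding. Of the repressors themselves, ZEB1 had 487 and 528 in HCT116 against 483 to 534, SNAI2 was null on all 6 arrays, and ZEB2 was null on all but RCC4 without VHL, at 1.

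Mesenchymal and matrix genes held both directions, with more lower calls. Of 42 listed genes 37 were on the array and 29 tested, of which 9 were called lower and 2 higher, against 9.38% and 11.3% of all tested genes. Against RCC4 alone 11 were lower, and against H1299 alone 3. The median difference was -0.13 against 0.05 over all tested genes. With arrays uncentred the counts were 9 lower and 0 higher, with either HCT116 array left out 5 were lower, and with the other arrays as 1 group VIM alone was called. VIM, CCN1 and CAV1 were called lower against each line. CAV1, the caveolar coat protein, had 282 and 170 in HCT116 against 525 to 747.

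Some of the other members were far from RCC4 and close to H1299. TGFBI, a matrix protein induced by TGF-beta, had 122 and 132 in HCT116, 162 and 147 in H1299 and 2520 and 1562 in RCC4. NNMT, nicotinamide N-methyltransferase, had 105 and 62, and 78 and 66 in H1299, against 1092 and 861 in RCC4. FN1, fibronectin, was not close to H1299. It was null in both HCT116 arrays and had 81 and 142 in H1299 and 82 and 456 in RCC4. Against H1299 alone FN1 was not called (limma adjusted p = 0.0625). The 2 members called higher were S100A4, a calcium-binding protein of motile cells, at 155 and 228 against 96 to 143, and collagen COL1A1, at 270 and 293 against 190 to 236. Neither was called with arrays uncentred, with null entries missing, without p53 wild-type HCT116 or without RCC4 lacking VHL, and COL1A1 was not called without p53-null HCT116 either. SNAI2 and CDH2 were null on all 6 arrays, although CDH2 had 66 and 63 on the replicate 2 arrays of RCC4, and TWIST1 was null in HCT116.

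Genes of EGF receptor signalling and of the feedback on the MAP kinase pathway were called higher in 7 of 14 tested members and lower in none, against 11.3% and 9.38% of all tested genes, with a median difference of 0.49. Against RCC4 alone 10 were higher and 1 lower, against H1299 alone 4 were higher, and 3 were higher against each line. The lower one was PHLDA1, at 44 and 62 in HCT116, 265 and 447 in RCC4, and 14 and a null entry in H1299. In this pathway EGF-family ligands activate receptors such as EGFR and ERBB3, and ERK then induces its own brakes, the DUSP phosphatases and SPRY proteins. The count was 7 with arrays uncentred and 3 with either HCT116 array left out. With the other arrays as 1 group DUSP5 alone was called. Among ligands, EREG (epiregulin) was listed only in HCT116, at 29 and 33, while HBEGF had 391 and 345 against 340 to 446.

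Among receptors, ERBB3 was listed only in HCT116, at 33 and 32, whereas EGFR had 357 and 378 against 224 to 351 and ERBB2 had 206 and 227 against 205 and 234 in H1299 and 105 and 100 in RCC4. Among feedback phosphatases, DUSP4 had 116 and 103 in HCT116, 7 in RCC4 with VHL and null entries on the other 3 arrays. DUSP6, the cytoplasmic ERK phosphatase, had 260 and 184 against 28 to 149. Both were above all 4 other arrays but failed the filter on dim genes, and without it their differences were 2.93 ± 0.15 (SE; limma adjusted p = 0.00439) and 1.65 ± 0.22 (SE; limma adjusted p = 0.0198). ETV5, a transcription factor downstream of ERK, had 399 and 368 against 262 and 254 in H1299 and 117 and 137 in RCC4. SPRY4 had 522 and 512 against 293 to 440. FOSL1, an AP-1 subunit, had 792 and 843 against 725 to 805 and was not called.

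Transcription factors of gut endoderm gave 3 higher calls among 7 tested, where 11.3% of all tested genes were called higher. There were also 3 with arrays uncentred, 2 with either HCT116 array left out and 0 with the other arrays as 1 group. KLF5, a proliferation factor of crypt cells, had 352 and 293 in HCT116 against 140 to 180, and was called against each line. KLF4, a factor of differentiating epithelium, had 291 and 279 against 203 to 227. PDX1, a factor of duodenum and pancreas, had 309 and 322, which overlapped the 301 and 323 of H1299 and lay above the 150 and 149 of RCC4. GATA6 was null on all 6 arrays, and FOXA2 had 64 and 61 against 61 to 75. HCT116 thus stood clear of the other arrays in KLF5 and KLF4 but not in PDX1. For KLF5 this held for 1 of its 2 probe sets.

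HOX genes, which record position along the body axis, gave 2 higher and 2 lower calls among 10 tested, against 11.3% and 9.38% of all tested genes. HOXB9 had 495 and 579 in HCT116 against 316 to 360, and was called against each line. HOXD8 had 267 and 268 against 198 to 236, a call lost with arrays uncentred. HOXB2 had 151 and 152 against 202 to 357. HOXC10 had 8 and 26, close to the 18 and 21 of H1299 and far under the 249 and 282 of RCC4.

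Wnt targets and crypt stem cell genes gave no call among 9 tested, with a median difference of 0.05. AXIN2 and LGR5, the usual reporters of Wnt signalling in the colon, were null on all 6 arrays. CTNNB1, beta-catenin itself, had 645 and 660 in HCT116 against 585 to 798, and CCND1 had 326 and 347 against 213 to 797. Over all 19 members on the array, dim ones included, 4 lay above all 4 other arrays and 2 below. Those below were MYC, at 34 and 20 against 37 to 76, and NKD1, at 355 and 361 against 370 to 406. ZNRF3, a relative of RNF43, was null in HCT116 and H1299 and at 16 and 24 in RCC4, and was called lower without the filter (limma adjusted p = 0.0349). SOX9, a factor of crypt progenitors, had 79 and 62 in HCT116, 38 and 57 in H1299 and null entries in RCC4 (limma adjusted p = 0.0121 without the filter). RNF43, a ligase that removes Wnt receptors, had 151 and 147 against 55 to 136 (limma adjusted p = 0.0187 without the filter). EPHB3, a crypt sorting receptor, had 130 and 130 against 83 to 122 (limma adjusted p = 0.0856).

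The counts of the remaining lists stand against 11.3% of all tested genes called higher and 9.38% called lower. Of 12 tested enzymes of drug and aldehyde metabolism 2 were called higher, ALDH1A3 and NQO1, a quinone reductase with 387 and 467 against 190 to 330, and 1 lower. The lower one, UGT1A6, a glucuronosyltransferase, was null in HCT116, null and 1 in H1299, and 454 and 453 in RCC4, so it set RCC4 apart and not HCT116. Of 15 tested p53 targets 3 were called higher and 2 lower. None was higher, against 3, without the p53 wild-type HCT116 array, and none without RCC4 with VHL. CDKN1A, the cell cycle inhibitor p21, had 212 in p53-null and 313 in p53 wild-type HCT116 against 105 to 168, and GDF15 had 867 and 1407 against 113 to 796. BBC3, a pro-apoptotic BCL2 relative, had 573 and 636 against 462 to 556. In these 3 genes the p53 wild-type HCT116 array was the higher of the pair. CCNG1, cyclin G1, was lower, at 272 and 234 against 399 to 698. Of 10 tested antigen presentation genes 2 were called lower, TAPBP and PSMB8, and against H1299 alone neither was called (limma adjusted p = 0.429 and 0.933). TAPBP had 116 and 124 in HCT116, 156 and 141 in H1299 and 358 and 476 in RCC4. Of 3 tested mismatch repair genes 0 were called. Of 8 cancer-testis antigens on the array 1 was tested, XAGE2, and it was not called.

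For the renal, lung, leukocyte, endothelial and fibroblast markers, the summed intensities of HCT116 overlapped those of the other lines. The mesenchyme and matrix genes did not, with 7681 to 7812 in HCT116 against 9848 to 16414 elsewhere. The 12 renal genes on the array summed to 2015 to 2071 in HCT116 and 1997 to 2173 elsewhere, with 1 called higher and 2 lower of 7 tested. PAX8, a renal factor, had 130 and 126 in HCT116, 121 and 105 in H1299 and 277 and 291 in RCC4. The 13 lung and neuroendocrine genes summed to 1961 to 1967 against 1729 to 2260, with 1 called higher of 7, and the lung factor NKX2-1 had 44 and 51 against 51 to 62. The 7 leukocyte genes summed to 1016 to 1020 against 910 to 1056, with 1 of 4 called higher. The 9 endothelial genes summed to 2285 to 2341 against 2239 to 2309, with 0 of 7 called. The 8 fibroblast genes summed to 1175 to 1448 against 1026 to 1237, with 1 of 4 called higher. Genes such as VWF, of endothelium, and SFTPC, of lung, were listed above 200 on all 6 arrays alike, so an intensity of that size on this array does not show that a gene is expressed.

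**Figure D4:**
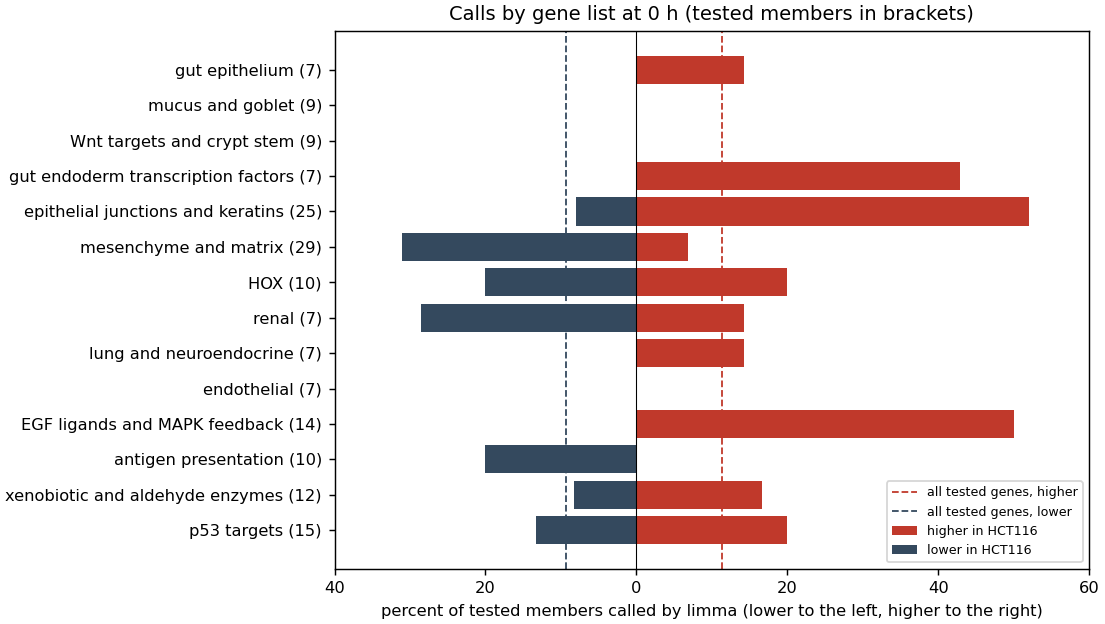
Percent of tested members called by limma at 0 h, higher in HCT116 to the right and lower to the left, for the 14 lists with 7 or more tested members; dashed lines give the same percent over all tested genes, 11.3 and 9.38. The longest bars to the right are those of epithelial junctions and keratins (52) and of EGF ligands and MAPK feedback (50), and the longest to the left is that of mesenchyme and matrix (31).

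The line difference was then tested in 8 arrays that the rule for the kept genes did not use, although they entered the filter and the choice of probe set. These were HCT116 at 12 h and 24 h of hypoxia in both genotypes, H1299 at 24 h and RCC4 at 18 h, replicate 1. All were thus hypoxic and the hours differed between lines. The genotypes, and in HCT116 also the hours, stood as the repeats of a line, so a p-value here measures repeatability over these. Over all tested genes limma called 2602 higher (34.2%) and 1225 lower (16.1%) in HCT116. With arrays uncentred 42.6% of the calls were higher, with quantile normalization 55.5% and with null entries missing 44.1%, against 68% here. Of the 641 genes above the others at 0 h, 514 (80.2%) were called higher in hypoxia and 0 lower. Of the 1326 genes below, 692 (52.2%) were called lower and 50 (3.77%) higher. On centred values, all 4 hypoxic HCT116 arrays lay above the 4 others in 320 of the 641 genes (49.9%), against 16.5% of all tested genes, and below them in 484 of the 1326 (36.5%), against 8.16%. On the deposited intensity these were 239 (37.3%), against 8.14%, and 654 (49.3%), against 12.5%. Against all 20 RCC4 and H1299 arrays not used at 0 h, on centred values, 268 (41.8%) lay above, against 12.7%, and 357 (26.9%) below, against 5.74%. With arrays uncentred the shares called in the same direction were 56.5%, against 17% of all tested genes, and 63.2%, against 22.9%.

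Of the genes called against each line at 0 h, a stricter choice from the same arrays, 81 of 87 higher genes (93.1%) and 161 of 175 lower genes (92%) were called in the same direction in hypoxia, where 34.2% and 16.1% of all tested genes were. DUSP5 had 543 to 737 on the 4 hypoxic HCT116 arrays, and 99 and 37 in hypoxic H1299. Its difference was 3.08 ± 0.23 (SE; limma adjusted p = 1.48e-04). ADIRF had 706 to 799 in hypoxic HCT116, against 150 and 166 in H1299 and 71 to 153 on the 18 RCC4 arrays not used at 0 h (2.44 ± 0.06, SE; limma adjusted p = 9.08e-07). VIM had 163 to 176 in hypoxic HCT116, against 1581 to 2531 on those RCC4 arrays and 1743 and 1711 in H1299 (-3.25 ± 0.04, SE; limma adjusted p = 3.01e-08). None of these overlapped.

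ESRP1 had 504 to 694 in hypoxic HCT116 and at most 127 on any RCC4 array not used at 0 h (limma adjusted p = 2.92e-05). KRT19 had 635 to 884, against 165 to 525 on those RCC4 arrays and 46 and 50 in H1299 (limma adjusted p = 2.31e-05). GNG11 stayed null on all 4 hypoxic HCT116 arrays, with 474 to 972 in RCC4 and 110 and 235 in H1299. FGF19 had 225 to 318 in hypoxic HCT116, below its 446 and 427 at 0 h, and still above the 51 to 104 of RCC4 and the 114 and 87 of H1299 (limma adjusted p = 1.76e-04). Of the epithelial list 15 of 25 were called higher and 2 lower in hypoxia, and of the MAP kinase list 11 of 14 were called higher, where 34.2% of all tested genes were called higher and 16.1% lower.

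The kept genes outside these counts were not called in the same direction in hypoxia. Among named genes not called, UPP1 had 541 and 288 in p53-null and 842 and 300 in p53 wild-type HCT116 at 12 h and 24 h, against 214 and 122 in H1299 and 304 and 444 in RCC4 (0.93 ± 0.37, SE; limma adjusted p = 0.0735). TBC1D4, a Rab regulator of glucose transporter traffic, had 37 to 168 in hypoxic HCT116 against 52 and 35 at 0 h (limma adjusted p = 0.133). MSANTD3 was null and 3 in HCT116 at 0 h and 57 to 89 in hypoxia, above the 10 and 30 of hypoxic H1299. CDKN1A had a difference of -0.02 in hypoxia against 1.00 at 0 h (limma adjusted p = 0.933 and 0.0250), and the change of the line difference between oxygen and hypoxia was not tested.

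**Figure D5:**
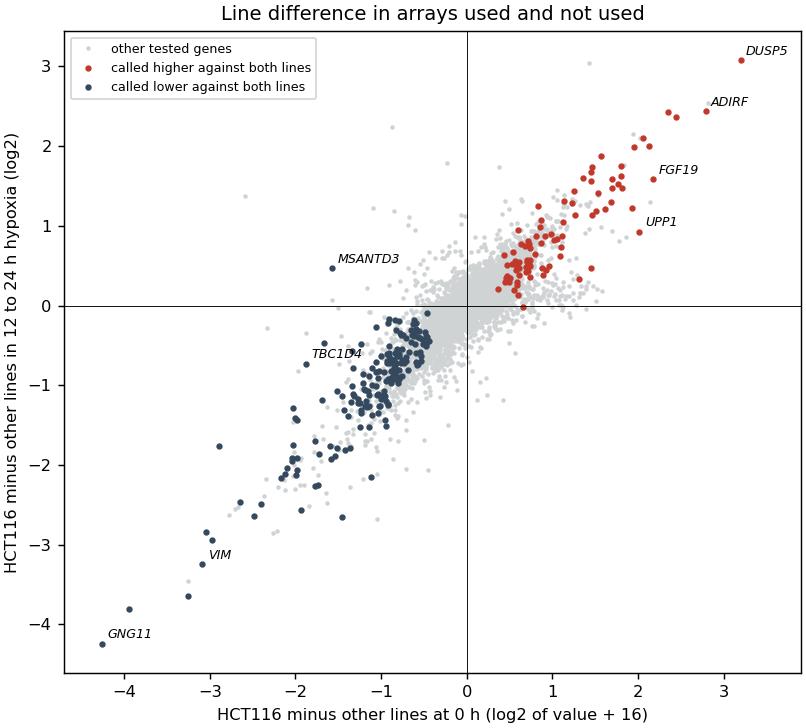
HCT116 minus the mean of the other lines in log2 units at 0 h (horizontal, 6 arrays) and in 12 h to 24 h of hypoxia (vertical, 8 other arrays) for 7614 tested genes; coloured points are the 87 and 175 genes called against each line at 0 h. Most coloured points lie near the diagonal, with DUSP5 and GNG11 at its ends, and TBC1D4 and MSANTD3 lie off it.

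Within HCT116 the p53 genotypes were close for the kept genes. The median absolute log2 difference between the HCT116 arrays was 0.07 for the 641 genes above and 0.09 for the 1326 below, against 0.11 over all tested genes, where a rule that needs both arrays on one side favours small differences. They differed by over 1.5-fold in 252 of 7614 tested genes (3.31%), of which 175 were higher in p53-null cells. Among the leading genes the widest such difference was that of UPP1, higher in p53 wild-type cells by 0.55 on the log2 scale. With 1 array per genotype this difference has no replicate check.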

How the data were processed

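Total RNA of 3 cell lines was hybridised to a custom Affymetrix array, 1 array per sample. The values are the linear intensity of each probe set as deposited by the authors, in whole numbers. The scaling the authors used and the meaning of null entries are not given in the sources used here, so null entries were taken as 0. Replicate 2 of RCC4 is on a brighter scale. Of 17478 annotated probe sets 16905 carried 1 symbol and 573 several, and the brightest probe set per symbol gave 12690 genes. For GSTO2, TSC22D3, CLDN1, KLF5, CDS1, FN1, COL1A1, GUCY2C and NKD1, 1 of 2 probe sets placed both HCT116 arrays beyond all 4 others. Values were log2(intensity + 16), centred on each array's median gene. The upper 60% of genes by mean over all 30 arrays, 7614 genes, were tested. Most of these arrays are RCC4, so the filter favours genes bright in RCC4. UGT1A6, null in HCT116 and at 454 and 453 in RCC4, passed it, while CDH1, at 187 and 219 in HCT116, failed.

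Line means were fitted with limma 3.58.1 (lmFit, eBayes; R 4.3.3), two-sided; p-values were Benjamini-Hochberg adjusted across the tested genes, with a threshold of 0.05. The fit was also run on simulated data of 7614 genes for HCT116 against the other lines at 0 h. It recovered 85% of genes changed by 1 and 94% of those changed by 2 on the log2 scale, with 5 false calls. Simulated RCC4 and H1299 shared 1 mean per gene, so these figures do not cover data in which those lines differ, as they do here. The kept genes, the 18 gene lists and the rule for names were chosen with earlier results of these data known. The rule named the 15 higher and 10 lower genes with the largest difference among kept genes called at 0 h with intensities of at least 100 in the higher group, up to 6 members per list, and 16 markers in any case. Genes called with the other arrays as 1 group, SPP1, MSANTD3 and further list members given by value, both dim and tested, were named after their values were seen. EPCAM and some other items are not reported here. Alternatives covered the pseudocount, the filter, the scaling, null entries, probe sets, the variance model, the error term, the RCC4 replicate and each array left out.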

Additional observations from a re-analysis of the deposited data

How the results depend on the processing

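Precision is limited by 1 array per group and by dim genes near the null entries. Counts of called genes at 0 h were 1573 for HCT116 against the mean of the other lines, 2731 against RCC4 and 481 against H1299, and 3827 in hypoxia. With the other arrays as 1 group the first count was 34. With replicate 2 of RCC4, where the median difference of all tested genes moved from 0.05 to 0.19, the counts were 3775 and against RCC4 5326, of which 71.5% and 72.7% were higher; the cause was not tested. Leaving out 1 array gave 547 to 1484 against the mean of the others (547 without p53-null and 659 without p53 wild-type HCT116, 965 without RCC4 with VHL). It gave 1560 to 2750 against RCC4 (1560, 1805 and 1569 without the same arrays), 190 to 378 against H1299 (190 and 193 without p53-null and p53 wild-type HCT116) and 3010 to 3579 in hypoxia. Without the filter on dim genes the count in hypoxia was 7421 of 12690 genes tested. The 1967 genes beyond all 4 other arrays were 165 with at least 1.5-fold between the nearest arrays, and 2180 to 3462 with 1 array left out (3158 without p53-null and 3462 without p53 wild-type HCT116). With both RCC4 replicates 14.8% of these genes were above, against 32.6%, and with centred arrays 54.5%. Of 56 named genes called at 0 h none reversed under any alternative run (51 could be fitted with null entries missing), and 13 kept the call with the other arrays as 1 group. No paired analysis was possible because the groups compared share no more than 1 replicate number.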
